A study of Arabidopsis thaliana with 4 samples.

Results

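The regions described here are the 10088 peaks, of 18957 in the LFY + UFO list, that had no partner in either list made with the mutant LFY protein. They came from ampDAP-seq, in which tagged proteins are incubated with PCR-amplified genomic DNA, which carries neither chromatin nor methylation marks, and the DNA that is pulled down is sequenced. The genomic DNA of all samples came from wild-type Col-0 Arabidopsis thaliana seedlings aged 2 weeks, and no protein was tagged in a plant. In the LFY + UFO sample, 5xmyc-tagged LFY made in a cell-free translation system was combined with a recombinant complex of ASK1 and 3xFLAG-tagged UFO. The 2 mutant samples held 5xmyc-tagged LFY with the K249R change (a lysine replaced by arginine), either alone or with the same ASK1-UFO complex. The fourth sample was input DNA with no tagged protein, for which no peak list was used here. Unmutated LFY in the absence of UFO was not analysed here. Each condition has 1 list of 400-bp intervals, merged by the authors from 3 replicates for LFY + UFO and from 2 for each mutant sample, so no spread between replicates can be given and no test between conditions was made. The lists hold no peak height, and the read depth is unknown.

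LEAFY (LFY) is a plant-specific transcription factor that turns meristems into flowers and switches on the genes for floral organ identity. UFO (UNUSUAL FLORAL ORGANS) belongs to the F-box proteins, the part of an SCF ubiquitin ligase that holds the substrate, and ASK1 is the SKP1-like adaptor that joins it to the cullin. UFO acts with LFY on the genes for petal and stamen identity, above all APETALA3 (AP3), and the comparison made here asks which sites of the LFY-UFO pair were not listed for LFY K249R, with or without UFO.

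A LFY + UFO peak was a member where its centre lay more than 200 bp from every centre in both mutant lists, which held 9956 peaks for LFY K249R and 8577 for LFY K249R with UFO. Members were thus chosen by the peak positions in the 3 lists. They made up 53.2% of the LFY + UFO list (95% exact binomial interval 52.5% to 53.9%). Of the other peaks, 7040 had a partner in both mutant lists, 1290 in the LFY K249R list only and 539 in the LFY K249R + UFO list only. These counts restate the choice and are a description. All binomial intervals given here cover counting error over peaks only, since peaks are not replicates.

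Few peaks lay close to the limit of 200 bp. The nearest mutant centre was 0 to 25 bp away at 7577 LFY + UFO peaks, 101 to 200 bp away at 126 peaks and 201 to 300 bp away at 165. A peak at the very limit still counted as matched, at positions 10766492 to 10766891 on chromosome 3, had its nearest mutant centre at 200 bp. The first member past the limit, at 12532603 to 12533002 on chromosome 1, lay 201 bp from the nearest centre of each mutant list. The median distance of members to the nearest mutant centre was 3617 bp, with quartiles of 1597 and 7349 bp. More than 5 kb away lay 3873 members (38.4%). The rule chose members by this distance, and no distances for random positions were computed. These values are therefore a description and not a trait of the members. The intervals of 401 members overlapped a mutant interval in part.

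**Figure D1:**
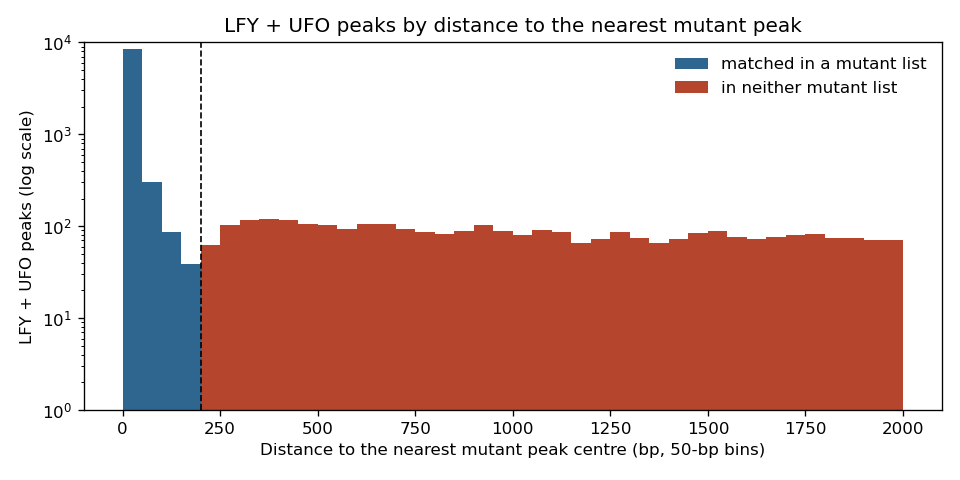
The histogram shows LFY + UFO peaks by distance from their centre to the nearest centre in either mutant list, in 50-bp bins up to 2000 bp, with the number of peaks on a log scale; the dashed line marks the limit of 200 bp. Matched peaks are piled up near 0, and only 126 and 165 peaks fall in the last 100 bp before and the first 100 bp after the limit.

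The members lay mostly inside genes. Of the 10088 members, 7792 had their centre inside an annotated gene, a share of 77.2% (76.4% to 78.1%). The share was 61.8% (60.7% to 62.9%) for the LFY + UFO peaks matched in both mutant lists, and 64.1% of the positions on the 5 nuclear chromosomes lie inside an annotated gene. Members thus exceeded the matched peaks by 15.4 percentage points (Newcombe 95% interval 14.04 to 16.8), and the matched peaks were slightly below the genome share. Location was not used to choose the members. Genes were taken from the RefSeq table of TAIR10.1, which keeps the nuclear chromosome positions of TAIR10, the build named for the lists. The table gives no strand, exons or untranslated regions, so a position is described only as inside a gene, beside it or farther away.

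Protein-coding genes accounted for most of this. They held 70.3% of the members (69.4% to 71.2%), against 56.8% of the peaks matched in both mutant lists and 54.1% of chromosome positions. Pseudogenes held 5.07% of the members and 3.30% of the matched peaks, both below the 7.90% of chromosome positions that they cover. Genes for long non-coding RNA held 1.67% of the members and 1.26% of the matched peaks, on either side of their 1.51% of positions. The 625 tRNA genes went the other way, with 7 members and 12 matched peaks, which are small numbers. Outside genes, the sequence within 1 kb of a gene held 16.9% of the members and 28.0% of the matched peaks, a difference of -11.1 percentage points (-12.4 to -9.80). Farther from genes lay 5.84% of the members and 10.2% of the matched peaks.

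The share inside genes was graded over the classes of peaks. It was 77.2% for members, 70.5% (66.5% to 74.3%) for LFY + UFO peaks matched in the LFY K249R + UFO list only, 69.4% (66.8% to 71.9%) for those matched in the LFY K249R list only and 61.8% for those matched in both. The interval of members lay above those of the other 3 classes, and the intervals of the 2 classes matched in a single list overlapped. Mutant peaks with no LFY + UFO partner stood at the other end, with 40.1% (37.7% to 42.5%) inside genes in the LFY K249R list and 36.6% (33.6% to 39.7%) in the LFY K249R + UFO list. Among the members themselves, the share was 72.1% (64.6% to 78.8%) for the 165 peaks that lay 201 to 300 bp from a mutant centre and 77.7% (76.3% to 79.0%) for the 3873 that lay over 5 kb away. These last 2 intervals overlapped. In the classes between them the share was 72.7%, 74.5%, 76.2%, 76.4% and 78.4%, in order of distance. For peaks with a mutant partner it rose from 62.9% at 0 to 25 bp to 68.3% (59.4% to 76.3%) at 101 to 200 bp. The interval at 101 to 200 bp overlapped that of the members at 201 to 300 bp. A step at the limit of 200 bp thus cannot be told from a gradual rise with distance.

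**Figure D2:**
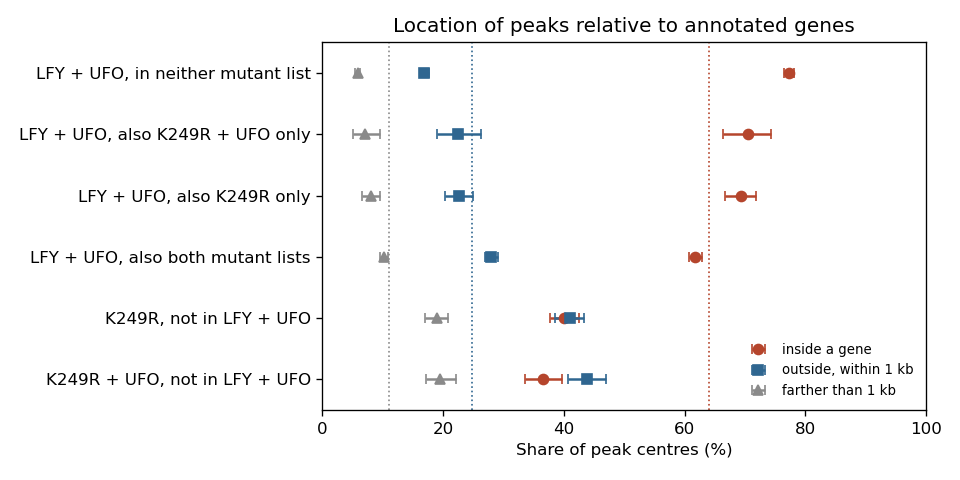
Shares of peak centres inside an annotated gene, outside within 1 kb of a gene and farther away, for 6 classes of peaks, with exact 95% binomial intervals as bars and the share of chromosome positions as dotted lines in the same colours. The share inside genes falls from 77.2% for the members to 36.6% for LFY K249R + UFO peaks without a LFY + UFO partner.

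The density of members rose inside protein-coding genes, mostly from 250 bp inwards, while that of the matched peaks fell at the edge itself. Densities per Mb depend on the size of each class, so they are compared here along the gene and not between classes. From 250 bp outside a protein-coding gene up to its edge there were 69.7 members per Mb, and in the first 250 bp inside there were 75.9. Deeper inside, the density of members reached 100.4 per Mb at 250 to 500 bp from the nearest edge and 130.8 per Mb at 1000 to 1500 bp. Peaks matched in both mutant lists had 79.96 per Mb just outside the edge, 58.9 just inside and 69.3 at 1000 to 1500 bp. As a share of the LFY + UFO list, members made up 41.4% (38.9% to 43.8%) of the peaks in the 250 bp outside genes and 59.4% (58.3% to 60.4%) of the peaks more than 500 bp inside. The remaining bins outside genes ranged from 42.3% to 49.6%. More than 500 bp inside a protein-coding gene lay 5113 members, which is 50.7% of them, against 38.4% of the matched peaks.

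**Figure D3:**
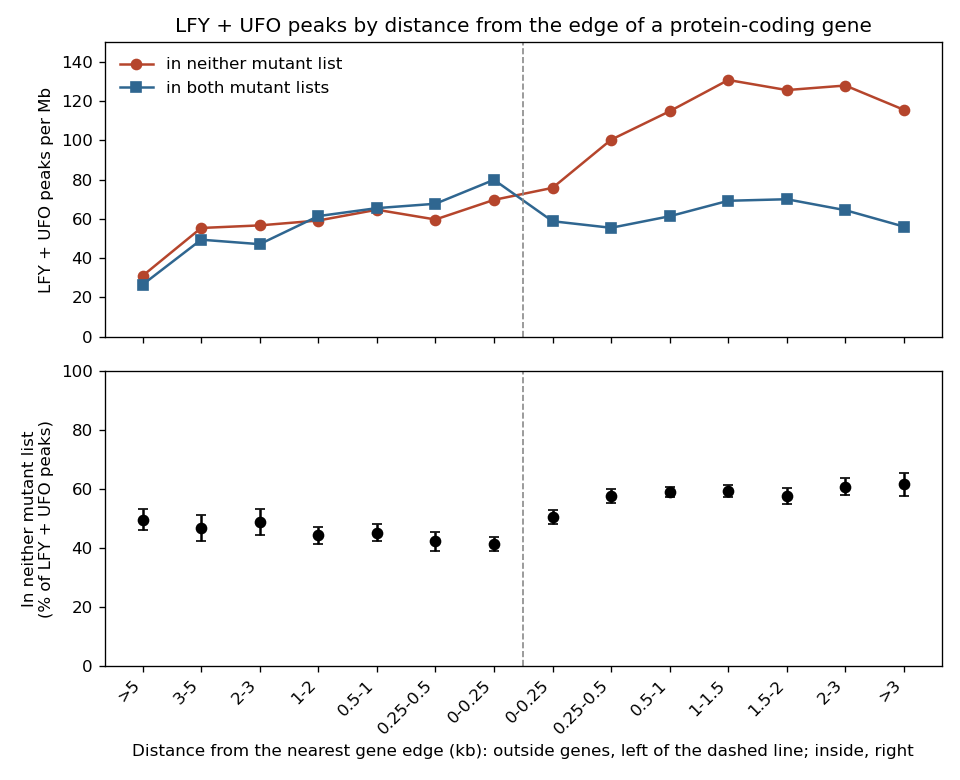
Upper panel, LFY + UFO peaks per Mb of sequence by distance from the nearest edge of a protein-coding gene, outside genes on the left of the dashed line and inside on the right; lower panel, the members as a share of all LFY + UFO peaks in each bin, with exact 95% binomial intervals. Members rise from 69.7 per Mb just outside the edge to 130.8 per Mb at 1 to 1.5 kb inside, while peaks in both mutant lists stay between 55.5 and 79.96 per Mb from 2 kb outside inwards.

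The excess of members inside genes was found on each chromosome and at each level of gene coverage. The share of members inside genes ran from 76.5% on chromosome 2 to 78.6% on chromosome 5, and that of peaks matched in both mutant lists from 59.9% on chromosome 3 to 63.3% on chromosome 5. The difference lay between 14.4 percentage points (11.6 to 17.2) on chromosome 1 and 16.9 (13.7 to 20.1) on chromosome 3, and the 5 intervals overlapped. In bins of 1 Mb with at least 20 peaks of each class, members were inside genes more often in 114 of 117 bins and less often in 2. When LFY + UFO peaks were divided into 3 groups by the gene coverage of their bin, the difference was 17.5 points at the lowest coverage, 15.1 in the middle and 12.9 at the highest, and the 3 intervals overlapped. Members were at 70.4% inside genes even where coverage was at or below 63.5%.

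**Figure D4:**
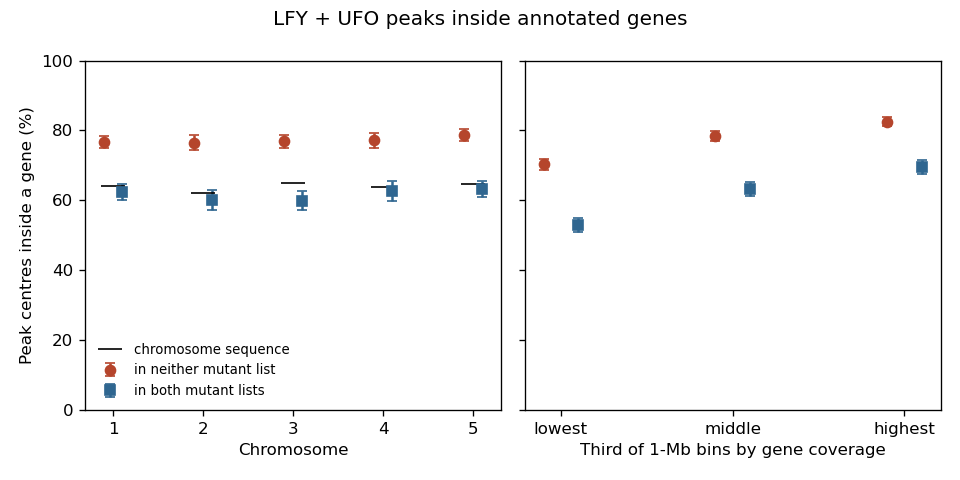
Share of peak centres inside an annotated gene for LFY + UFO peaks in neither and in both mutant lists, by chromosome (left, with the share of chromosome sequence as a black dash) and by 3 groups of 1-Mb bins ranked by gene coverage (right), with exact 95% binomial intervals. Members lie above the matched peaks in each of the 8 pairs, by 12.9 to 17.5 percentage points.

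At the level of genes, 6071 of 27444 protein-coding genes, or 22.1%, had a member inside. Peaks matched in both mutant lists were inside 3712 genes, or 13.5%. A LFY + UFO peak with a mutant partner was inside 1303 (21.5%) of the genes with a member, against 17.0% of all protein-coding genes; the genes with a member were longer, with a median of 2836 bp against 2078 bp. A single member was found in 5101 genes and at least 2 members in 970. The chance of holding a member grew with the length of the gene. It was 6.05% for genes of 500 to 1000 bp, 17.8% for genes of 1500 to 2000 bp and 60.6% for genes over 6000 bp. For peaks matched in both mutant lists it grew as well, at 4.05%, 10.7% and 37.4% in the same length classes. Per Mb of gene, members numbered 81.0 to 92.7 in genes up to 1500 bp and 110.0 to 116.3 in longer ones, and the matched peaks 52.5 to 65.9 over all lengths. In the 1040 genes that held both kinds of peak, members were no deeper in the gene. In each gene, the mean distance of each kind from the nearest end was taken as a share of the gene length. The median of these means over genes was 26.4% for members and 26.6% for the matched peaks. By their mean, the members were deeper in 527 genes, or 50.7% (47.6% to 53.8%).

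At 41 genes listed for their part in flowering and flower development, or as subunits of the UFO complex, members were not more frequent than at all protein-coding genes in windows of 3 kb, and matched peaks were. Within the gene or 3 kb on either side, 21 of the 41 genes (51.2%) had a member, against 54.2% of all protein-coding genes. With centres required at least 400 bp apart these shares were 43.9% and 52.9%, and with windows of 1 kb on either side the order turned, at 39.0% and 34.1%. A peak matched in both mutant lists was present at 33 of the 41 genes (80.5%), against 41.4% of all protein-coding genes. These windows held 86 LFY + UFO peaks, of which 28 were members, 51 were matched in both mutant lists and 7 in a single one. Members were thus 32.6% (22.8% to 43.5%) of the LFY + UFO peaks at the listed genes, and 53.6% (52.8% to 54.3%) of those inside or within 3 kb of any protein-coding gene. Per gene window there were 0.683 members at the listed genes against 0.803 over all protein-coding genes, and 1.24 matched peaks against 0.537. The listed genes were longer than the average, with a median of 2681 bp against 2078 bp.

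Members at the listed genes often had a mutant peak close by. The nearest mutant centre was within 1 kb for 13 of the 28 (46.4%), against 15.6% of all members, as a description of distances that the choice of members used.

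**Figure D5:**
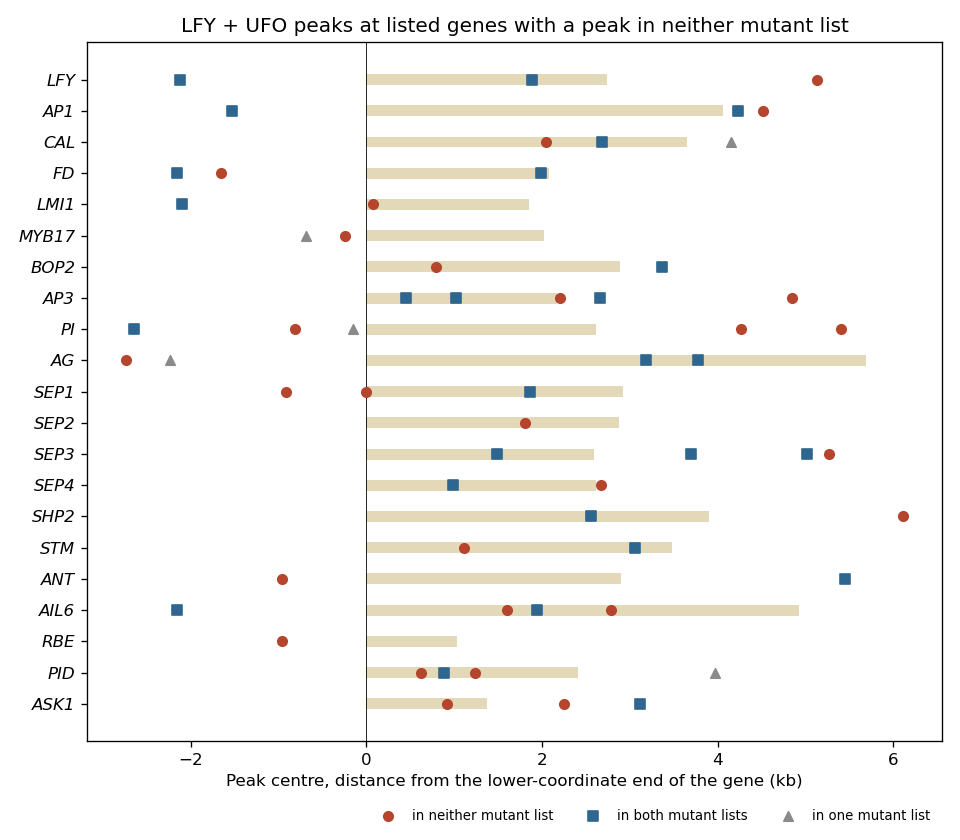
LFY + UFO peak centres at the 21 listed genes with a member, by distance in kb from the lower-coordinate end of the gene; the shaded bar is the gene, and the strand is not shown. The 28 members (circles) lie both inside and beside genes, and squares (in both mutant lists) or triangles (in a single mutant list) stand at all of these genes except SEP2 and RBE.

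Among the genes for floral organ identity, 8 of 11 (72.7%) had a member, and 8 (72.7%) had a peak matched in both mutant lists. Over all protein-coding genes these shares were 54.2% and 41.4% in the same window. Members were 12 of the 27 LFY + UFO peaks in the windows of the 11 genes, or 44.4% (25.5% to 64.7%). At all protein-coding genes they were 53.6%. Only 1 of the 11 genes had a member inside. AP3 encodes the MADS-box protein that, with PISTILLATA (PI), specifies petals and stamens. Its window held 5 LFY + UFO peaks, of which 2 were members. The first member, at 20121140 to 20121539 on chromosome 3, was centred 26 bp beyond the higher-coordinate end of the gene, 448 bp from the nearest LFY K249R centre and 452 bp from the nearest LFY K249R + UFO centre. The second, at 20123782 to 20124181, lay 2668 bp beyond the same end and over 2 kb from either mutant list, with distances of 2194 and 2190 bp. The 2 AP3 peaks inside the gene were both matched, at 20119389 to 20119788 and at 20119960 to 20120359. No member lay inside AP3.

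PI had 3 members, the largest number at any listed gene. One of them, at 6827888 to 6828287 on chromosome 5, was centred 816 bp outside the lower-coordinate end of PI, 656 bp from the nearest LFY K249R centre and 1816 bp from the nearest LFY K249R + UFO centre. A peak between it and the gene, at 6828549 to 6828948, was matched by LFY K249R at 5 bp but by no LFY K249R + UFO peak within 2477 bp. The other 2 members of PI lay 1655 and 2797 bp beyond its higher-coordinate end. A peak farther out on the lower-coordinate side, at 6826057 to 6826456, was matched in both mutant lists, at 11 and 15 bp. No LFY + UFO peak of any class was inside PI.

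AGAMOUS (AG), which specifies stamens and carpels, had 1 member, 2 peaks matched in both mutant lists and 1 in the LFY K249R list only. Its member, at 10379917 to 10380316 on chromosome 4, was 2739 bp outside the lower-coordinate end and 548 bp from the nearest LFY K249R centre, but 5925 bp from any LFY K249R + UFO centre. The peak next to this member, at 10380421 to 10380820 and also outside the gene, was matched by LFY K249R at 44 bp. Both peaks inside AG were matched in both mutant lists, within 7 bp. The SEPALLATA genes encode the MADS-box partners of the organ identity proteins, and each of the 4 had a member. SEP1 had 2 members, at 5150222 to 5150621 and at 5151128 to 5151527 on chromosome 5, 912 and 6 bp outside its lower-coordinate end and 1866 bp or more from any mutant centre. SEP2 had a single LFY + UFO peak, at 465889 to 466288 on chromosome 3, which was a member inside the gene, 4350 bp from the nearest LFY K249R centre. SEP3 and SEP4 each had a member outside the gene, and the one at SEP3 was just past the limit, at 227 and 236 bp from the mutant centres. Each of SEP1, SEP3 and SEP4 also had 1 peak inside the gene that was matched in both mutant lists. SHATTERPROOF2 (SHP2), a gene of fruit and ovule development, had a member 2213 bp outside the gene. A peak inside SHP2 was matched in both mutant lists. AP2 and SHP1 had no LFY + UFO peak in their windows, and CRABS CLAW (CRC), a gene of carpel and nectary development, had only a matched one.

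Of the 15 genes for floral meristem identity and flowering, 7 (46.7%) had a member, against 54.2% of all protein-coding genes. A peak matched in both mutant lists was present at 13 (86.7%), against 41.4% of all protein-coding genes. LFY itself had a member, at 24849183 to 24849582 on chromosome 5, which was 2394 bp beyond the higher-coordinate end and over 3 kb from any mutant centre. The peaks inside LFY and 2118 bp outside its lower-coordinate end were both matched. APETALA1 (AP1), a MADS-box gene that LFY activates in the young flower, had 3 peaks. Its member, at 25986605 to 25987004 on chromosome 1, was centred 284 bp from the nearest LFY K249R centre and overlapped the neighbouring matched peak. CAULIFLOWER (CAL), a close relative of AP1, had a member inside the gene, at 9101842 to 9102241 on chromosome 1, 639 and 634 bp from the mutant centres.

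LATE MERISTEM IDENTITY1 (LMI1), a homeobox gene downstream of LFY, had a member at 1004662 to 1005061 on chromosome 5. Its centre lay 80 bp inside the lower-coordinate end of the gene and 2172 bp from the nearest LFY K249R centre. MYB17, a MYB gene also known as LMI2, had a member 246 bp outside the gene, at 22670283 to 22670682 on chromosome 3, 429 bp from a LFY K249R centre and 3550 bp from any LFY K249R + UFO centre. BLADE-ON-PETIOLE2 (BOP2), which acts in organ boundaries and floral meristem identity, had a member inside the gene at 17238325 to 17238724 on chromosome 2, 2579 bp from the nearest mutant centre. FD, a bZIP partner of the FT protein, had a member 1652 bp outside the gene between 2 matched peaks. FUL, TFL1, SOC1, AGL24, SVP, RAX1, BOP1 and PUCHI had no member. All of these except SVP, which had no LFY + UFO peak, had at least 1 peak matched in both mutant lists, up to 4 at RAX1.

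Among the 13 genes for meristems, boundaries and organ growth, 5 (38.5%) had a member and 10 (76.9%) a peak matched in both mutant lists. The shares over all protein-coding genes were 54.2% and 41.4%. AINTEGUMENTA-LIKE6 (AIL6) and PINOID (PID) had 2 members each, all of them inside the gene. AIL6, a growth regulator of the AINTEGUMENTA family, had its members at 3316802 to 3317201 and at 3317989 to 3318388 on chromosome 5, on either side of a matched peak at 3317145 to 3317544. PID, a kinase of auxin transport, had the same arrangement, with members at 14590153 to 14590552 and 14590770 to 14591169 on chromosome 2 around a matched peak at 14590424 to 14590823. The member centres at PID were 306 and 308 bp from the nearest mutant centre, and that of the lower-coordinate member at AIL6 was 347 bp away, so these 3 overlapped a mutant interval in part. The other AIL6 member was 840 and 839 bp from the mutant centres. SHOOT MERISTEMLESS (STM), which keeps the shoot meristem undifferentiated, had a member inside the gene at 23059496 to 23059895 on chromosome 1, 1948 bp from the nearest mutant centre.

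AINTEGUMENTA (ANT) had a member at 17738355 to 17738754 on chromosome 4, 959 bp outside the gene and 6386 bp from the nearest mutant centre. RABBIT EARS (RBE), a zinc-finger gene of petal development, had a single LFY + UFO peak, a member at 1826994 to 1827393 on chromosome 5. It was 956 bp outside the gene, 1092 bp from the nearest LFY K249R centre and 10273 bp from any LFY K249R + UFO centre. UFO, WUS, CLV1, CLV3, ETT, SUP, ARR7 and AHP6 had no member. All of these except ARR7 and AHP6 had at least 1 peak matched in both mutant lists, up to 3 at ETT. ARR7 had 2 peaks matched in the LFY K249R list only, and AHP6 had no LFY + UFO peak. Of the 2 genes for the UFO complex, ASK1 had 2 members and CUL1, the cullin gene, had none. Each of the 2 genes had 1 peak matched in both mutant lists. The ASK1 member at 28517233 to 28517632 on chromosome 1 lay inside the gene, 2208 and 2196 bp from the mutant centres.

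Close neighbours within the LFY + UFO list were slightly more frequent for members with the partner limit of 200 bp, and less frequent with 400 bp. Another LFY + UFO centre lay within 400 bp of 8.16% of the members (7.63% to 8.71%) and of 6.35% of the peaks matched in both mutant lists (5.79% to 6.94%), a difference of 1.81 percentage points (1.02 to 2.58). The direction depended on the limit for a partner: with 400 bp in place of 200 bp the shares were 5.04% and 10.3%, since a member must then have no mutant centre, and so hardly any matched neighbour, within 400 bp. Among the 823 members with such a neighbour, the neighbour was itself a member for 473, or 57.5% (54.0% to 60.9%). The neighbour was a member for 267 of the 447 matched peaks with one, or 59.7% (55.0% to 64.3%), and the 2 intervals overlapped. Over all distances, the nearest LFY + UFO neighbour was a member for 53.3% (52.3% to 54.2%) of the members and for 53.2% (52.0% to 54.3%) of the matched peaks, both near the 53.2% of the whole list. The median distance to the nearest LFY + UFO neighbour was 2009 bp for members and 2084 bp for matched peaks.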

How the data were processed

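Genomic DNA of wild-type seedlings was probed by ampDAP-seq. The submitters' processing notes name Bowtie2, SAMtools, MACS2 and the TAIR10 build, without versions or roles. Per the labels, peaks had to be present in all replicates of a condition. The deposited lists give chromosome, start and end of 400-bp intervals, and no count, height or other value per peak; read depth is unknown. How the common width was set is not given in the sources used here.

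Members were found from interval centres, with a limit of 200 bp. Centres were placed against the annotated nuclear genes of the RefSeq TAIR10.1 table, of which 27444 are protein-coding. All 41 listed genes matched by locus tag. As a check of the shared coordinates, all centres were moved. Moves of 5000 bp lowered the share of members inside genes from 77.2% to 66.2% or 66.8%. They raised that of peaks matched in both mutant lists from 61.8% to 66.1% or 65.7%, so the 2 classes came close together. Moves of 200 bp lowered the share of members only to 76.7% and 77.1%, so the check is weak for small offsets. Shares have exact (Clopper-Pearson) 95% intervals and differences of shares Newcombe intervals. They cover counting error only. The code was tested on simulated lists. Software was pandas 2.3.3 and numpy 2.4.6 for tables, scipy 1.17.1 for intervals and matplotlib 3.10.9 for plots, under Python 3.11.15.

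The members, the gene list and the tests were chosen with earlier results of these data known. The rule for named genes was to report every gene of the list, with or without a member. The planned window, 3 kb upstream to 1 kb downstream, needs the strand and was replaced by 3 kb on either side. Planned work on motifs, GC content, spaced words and exons was not done, because no genome sequence or exon annotation was used, and no sequence is printed for the same reason. Alternatives are listed in the closing section.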

Additional observations from a re-analysis of the deposited data

How the results depend on the processing

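For 12 results, 48 alternatives were computed; 30 stayed within the main interval or within 1.5 times the main count, 17 moved, and 1, on close neighbours, changed direction. The difference between members and peaks matched in both mutant lists in the share inside genes ran from 13.5 to 16.4 percentage points over 8 alternatives.

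Requiring centres at least 400 bp apart gave 51.1% of the LFY + UFO list as members, and using the LFY K249R + UFO list alone gave 60.0%. With protein-coding genes only, 70.3% of members and 56.8% of matched peaks were inside a gene, a difference of 13.5 points. With the whole interval required inside a gene these shares were 68.7% and 52.3%. With the LFY K249R + UFO list alone, 76.3% of members were inside a gene and the difference was 13.9 points. Against peaks matched in at least one mutant list (63.4% inside a gene) it was 13.8 points. A flank of 3 kb held 22.1% of members, with a difference of -14.9 points. Another LFY + UFO centre lay within 1 kb of 28.4% of members. With centres required at least 400 bp apart, 5.04% of members had another LFY + UFO centre within 400 bp, and the difference from matched peaks turned to -5.27 points. That limit removes members beside matched peaks by construction. Within the gene body alone, 8 of the 41 listed genes (19.5%) had a member and 18 (43.9%) a matched peak, against 22.1% and 13.5% of all protein-coding genes; the smaller window gives fewer genes by construction.

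Alternatives chosen after seeing the data were the comparison with at least one mutant list, the whole interval, the weighting within 1-Mb bins, isolated peaks, the gene windows, the 400-bp limit for neighbours, and, for location and listed genes, the LFY K249R + UFO list alone and, for location, the 100-bp limit. Alternatives on motifs, GC content, spaced words, base composition and a window of 1 kb upstream were not run, for lack of a sequence and of strand. No paired analysis was possible because the authors merged the replicates into 1 list per condition, and no replicate was left out for that reason. Without heights or depth, weakly bound sites that missed the authors' threshold cannot be told from unbound ones.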

Other observations

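Single genes held up to 7 members. The genes named here were chosen after their values were seen. AT4G17140, a gene of 23.5 kb on chromosome 4, had 7 members among its 8 LFY + UFO peaks. The gene named ATBCAT-5 in the RefSeq table (7.55 kb), AT3G50590 (8.63 kb) and ILA (18.6 kb) had 5 each. In ATBCAT-5 all 5 LFY + UFO peaks were members, from 26314653 to 26317939 on chromosome 5, and none was closer than 8820 bp to a mutant centre. Another 19 genes had 4 members. They included RR2, a response regulator of cytokinin signalling, DCL2, a Dicer-like enzyme of small RNA production, and DME, a DNA glycosylase that removes methylated cytosine. The 4 LFY + UFO peaks inside RR2 and the 4 inside DCL2 were all members. Of all 6071 protein-coding genes with a member inside, 4768 (78.5%) likewise held no LFY + UFO peak with a mutant partner. Members made up 57.9% of the LFY + UFO peaks inside protein-coding genes. DME also held 2 peaks matched in both mutant lists.

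The longest run of members along the LFY + UFO list, with no matched peak in between, was 16 peaks over 69.0 kb on chromosome 4, from 14007770 to 14076728. The second was 15 peaks on chromosome 5, from 1822184 to 1886352, which includes the member beside RBE. Of the 4706 runs, 2202 were a single member and 24 held 10 or more. Members made up 53.2% of the list, and at such a share runs arise without any clustering, which was not tested.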
